A study of Mus musculus with 42 samples.

Results

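The genes of vesicle and endosome trafficking on these arrays were taken by symbol. Members were the genes of single-gene reporters whose symbol began with Rab, Vps, Snx, Sec, Arf or Stx and a number, with Cop and a, b, e, g or z, with Ap1 to Ap4 and b, g, m or s, or with Vamp or Chmp, and Vps37b was left out. A reporter is a spotted cDNA, and the one with the highest mean level over all samples stood for its gene. The rule gave 80 genes of the 3230 named by single-gene reporters, with 91 reporters in all. Symbols alone decided which genes were members, while the measured level decided which reporter stood for a gene. By mean level, 31 of the 80 lay below the median of all 4992 reporters and 9 in the lowest 25%, and no filter on low values was applied. The names cover more than vesicle traffic: Sec61g, Sec61a2, Sec63 and Sec11c act in protein entry into the endoplasmic reticulum, Vps72 is a chromatin remodelling subunit and Sec14l2 a lipid-binding protein.

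RNA came from mouse CD4+ T cells at 4 stages, with 3 samples in each of 7 groups and 2 arrays for each sample. Effector Th1 and effector Th2 cells had been cultured for 4 days with antigen-presenting cells, polarised to Th1 or to Th2, and rested Th1 and rested Th2 cells had then spent 3 days without those cells. Memory Th1 and memory Th2 cells were rested cells that had been transferred and were sorted by flow cytometry after 4 to 12 weeks. Their hosts were thymectomized, lethally irradiated mice, depleted of T cells and reconstituted with bone marrow. Naive cells were CD44lo CD62Lhi CD45RBhi CD25- cells from the spleen of AND TcR/GFP transgenic mice, although the source field of the labels names the thymus. The AND receptor recognises a pigeon cytochrome C peptide on I-Ek, and the cells of all groups carry the transgenes. Whether all cells had only this specificity was not checked. The labels do not say which samples came from separate animals or cultures, so p-values measure the spread between these samples, which may be technical.

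Membrane proteins and secreted proteins enter the endoplasmic reticulum through the Sec61 channel, leave it in COPII-coated vesicles, and are returned from the Golgi by COPI. Arf and Rab GTPases mark each compartment and recruit coats, adaptors and tethers, and SNARE proteins fuse the membranes. Sorting nexins, retromer and retriever send cargo from endosomes back to the Golgi or the surface, while ESCRT complexes and the HOPS tether pass it on to lysosomes. In T cells these routes carry the antigen receptor to and from the surface and deliver cytokines. The question put to each step was which of these genes differed in level between cells of consecutive stages.

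Values are levels on the log2(intensity + 1) scale after quantile normalization of all arrays, and differences between groups are on the same scale with the standard error (SE) of the limma fit, which draws on the spread of all 7 groups. A gene was called where its adjusted p was below 0.05 after Benjamini-Hochberg adjustment over all 4992 reporters, and "rose" and "fell" are used only of called genes. Groups are said to overlap unless all 3 samples of one lay beyond all 3 of the other. Within a group, the correlation between samples across reporters was 0.893 to 0.974, and array medians of raw intensity ran from 5.74 to 12.99. In 13 pairs of samples of different groups with the same number, the spot-by-spot difference between array a and array b was the same (r of at least 0.998, against at most 0.0444 otherwise), which left 10 such array patterns in 21 samples. The pattern was shared between Th1 and Th2 cells of 1 stage, and between naive and memory cells numbered 1 and 3. No pattern joined naive with effector, effector with rested or rested with memory cells, so in those steps stage and pattern cannot be told apart. Of 14 CD4 T cell genes listed as markers only Cd247 was measured, at summed intensities of 0.989 to 4.26 in all samples, so the cell label could hardly be checked.

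Sequences are shown for 3 members whose levels changed between stages in both lineages, as the stretch from 250 bases before to 50 bases after the transcription start (RefSeq, GRCm38.p6). Sec61g lies at chr11:16508435-16508734 on the minus strand, Rab3ip at chr10:116950404-116950703 on the minus strand and Arf4 at chr14:26637884-26638183 on the plus strand. Each is written 5′ to 3′ on the strand of its gene, with matches to the motifs below in capitals.
Sec61g: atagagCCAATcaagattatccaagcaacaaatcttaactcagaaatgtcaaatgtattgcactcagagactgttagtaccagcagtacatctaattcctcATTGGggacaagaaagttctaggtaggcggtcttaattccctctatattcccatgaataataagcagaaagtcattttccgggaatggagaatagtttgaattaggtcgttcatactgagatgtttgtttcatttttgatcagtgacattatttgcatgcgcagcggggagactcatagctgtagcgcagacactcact
Rab3ip: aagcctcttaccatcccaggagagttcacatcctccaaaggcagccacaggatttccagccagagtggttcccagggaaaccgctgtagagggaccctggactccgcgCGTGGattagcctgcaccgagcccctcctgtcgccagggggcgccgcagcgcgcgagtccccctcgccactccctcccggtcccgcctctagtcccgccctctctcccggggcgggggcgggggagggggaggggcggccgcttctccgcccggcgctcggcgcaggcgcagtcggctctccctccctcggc
Arf4: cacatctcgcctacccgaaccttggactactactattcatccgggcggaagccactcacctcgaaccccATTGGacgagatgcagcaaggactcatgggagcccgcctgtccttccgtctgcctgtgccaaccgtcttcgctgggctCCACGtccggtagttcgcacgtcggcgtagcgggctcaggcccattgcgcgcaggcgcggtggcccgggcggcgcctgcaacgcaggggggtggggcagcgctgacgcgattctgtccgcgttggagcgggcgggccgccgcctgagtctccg
The 5 motifs searched on both strands were CCAAT, which the factor NF-Y binds, CCACG, a part of the endoplasmic reticulum stress element, CACGTG, the E-box of MYC-type factors, TGACGT, the core of CREB and ATF sites, and TAAACA, a forkhead motif. CCACG and CACGTG can share letters. Sec61g held CCAAT at 2 places and none of the other letters, Arf4 held CCAAT and CCACG once each, and Rab3ip held CCACG once. Among the 61 members with a promoter in the table, 23 (37.7%) held CCAAT, against 37.4% of all 32851 promoters. For CCACG the share was 31 of 61 members (50.8%) against 32.8% of all promoters, for CACGTG 8 (13.1%) against 7.15%, for TGACGT 10 (16.4%) against 7.51% and for TAAACA 4 (6.56%) against 13.4%. These are counts of letters, with no test, and say nothing about binding.

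Across all comparisons 28 of the 80 genes were called at least once and 52 never, and the 28 gave 49 calls. That is 35% of the genes, against 31.9% of all reporters called at least once. In 47 of the 49 the samples of the groups compared did not overlap, and 27 of the 49 kept their call in each fit that left out 1 sample. For each call, here and below, only fits without a sample of the compared groups were counted. The calls fell in the steps between stages, and with no block none fell between Th1 and Th2 cells of 1 stage or between memory and naive cells. The map of all 80 genes by sample shows that a few rows, Snx5, Sec61g, Rab3ip and Rab30 among them, follow the effector stage in both lineages.

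**Figure D1:**
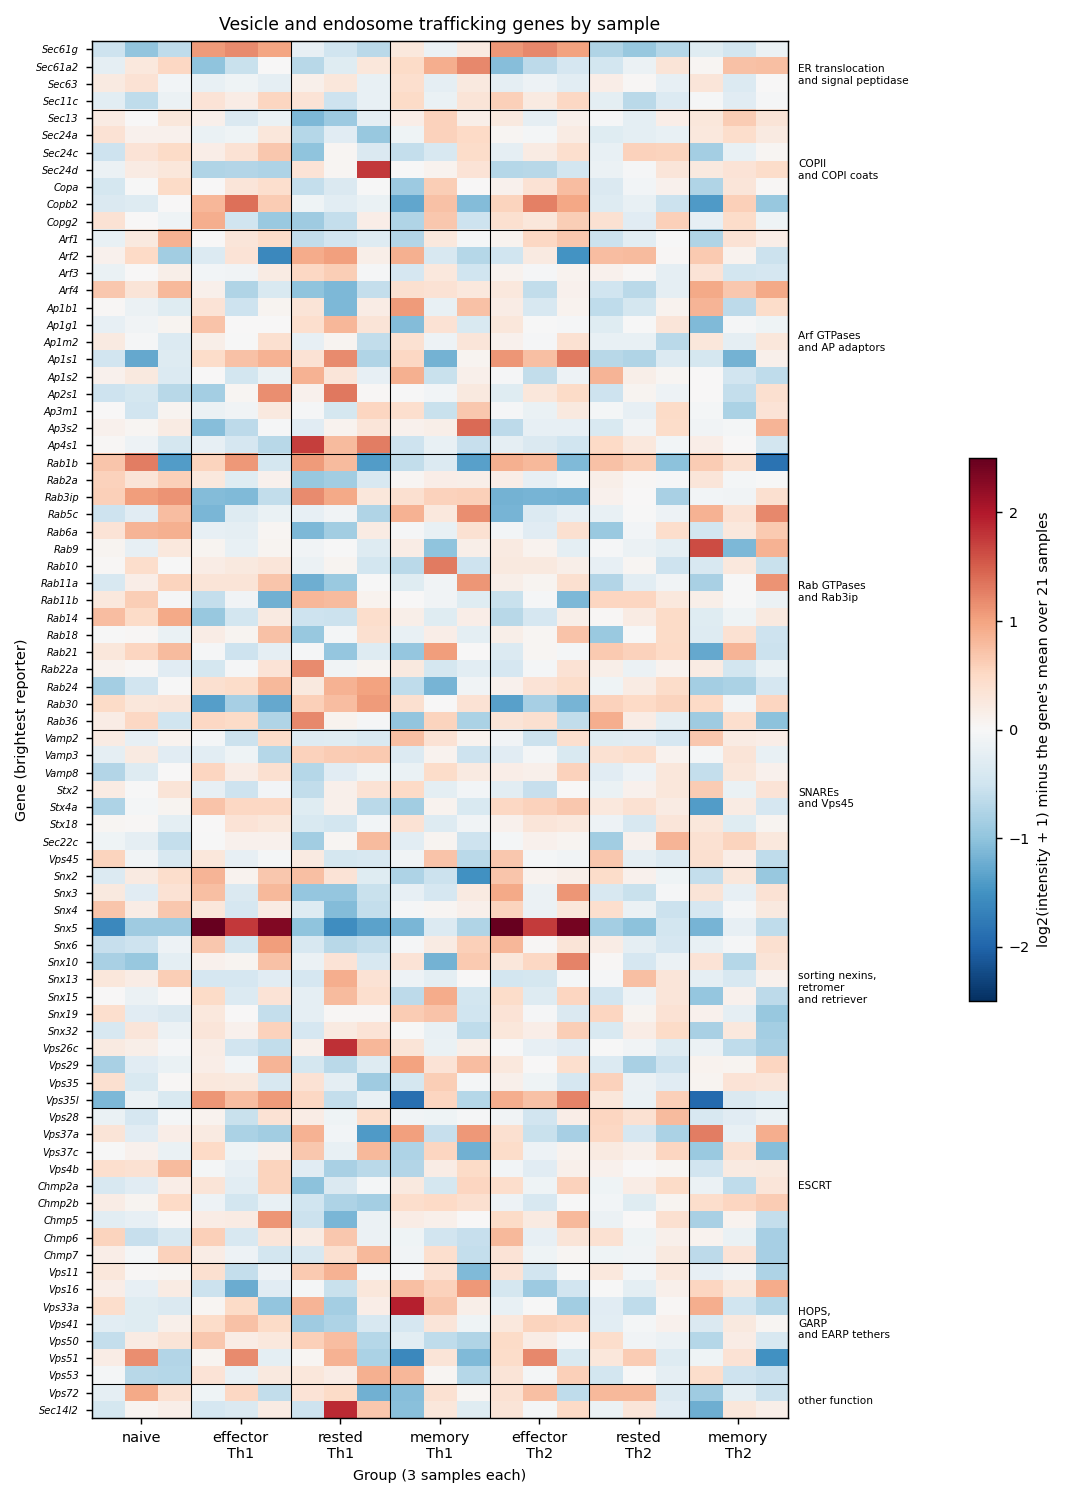
Each row is 1 of the 80 genes, grouped by role, and each column 1 of the 21 samples; colour gives log2(intensity + 1) minus the mean of the gene over all samples, with the scale ending at 2.5 either way. The effector columns of both lineages are high for Sec61g and Snx5 and low for Rab3ip and Rab30.

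In effector cells of both lineages 4 genes moved together against naive cells: the Sec61 channel gene Sec61g and the sorting nexin gene Snx5 rose, and the Golgi GTPase gene Rab30 and Rab3ip, which encodes an activator of Rab8, fell. The GTPase gene Rab14 fell in both as well. In effector Th1 cells 3 of 80 genes rose and 4 fell, where 5.53% of all reporters rose and 4.35% fell. In effector Th2 cells 4 rose and 3 fell, where 5.31% of all reporters rose and 3.83% fell. The share of trafficking genes called, 8.75% in each, was thus near that of all reporters (9.88% and 9.13%). With arrays centred on their medians in place of quantile normalization, 5 genes rose and 2 fell in effector Th1 cells, where 5.73% of all reporters rose and 3.1% fell. Their median change was 0.02 in effector Th1 and 0.06 in effector Th2 cells, with -0.05 and -0.06 over all reporters. Both comparisons use the same 3 naive samples, so their likeness is in part built in. The arrays measure bulk RNA, in which fewer cells of a type and less RNA per cell cannot be told apart.

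Sec61g (Entrez 20335) encodes the gamma subunit of the channel through which new proteins enter the endoplasmic reticulum. Its level was 7.25, 7.35 and 7.17 in effector Th1 cells and 7.26, 7.37 and 7.18 in effector Th2 cells, against 5.66, 5.20 and 5.54 in naive cells. Both effector groups lay wholly above naive cells, and their 6 values spanned less than the 3 naive ones. Same-numbered effector samples shared an array pattern and deviated together over all reporters (r = 0.788 to 0.909). These 6 values are thus not independent measurements. The difference from naive cells was 1.79 ± 0.21 in effector Th1 (3.46-fold with n = 3 a group and SE after the sign, adjusted p = 5.10e-06) and 1.80 ± 0.21 in effector Th2 cells (3.49-fold, adjusted p = 5.14e-06). Sec11c, a catalytic subunit of the signal peptidase that trims these proteins, did not pass the test in either (0.70, adjusted p = 0.0984, and 0.79, adjusted p = 0.0551). With sample number as a block Sec11c was called in both (adjusted p = 0.00812 in effector Th1 and 0.00327 in effector Th2 cells). Sec61a2, an isoform of the channel's alpha subunit, went the other way, with differences of -0.70 and -0.89 that passed only with that block (adjusted p = 0.00493 and 0.000692). With no block a second reporter of Sec61a2 differed by -0.31 (adjusted p = 0.664) and -0.46 (adjusted p = 0.473). Sec63, which works beside the channel, was called in no comparison with no block.

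Rab3ip (Entrez 216363) had 3.00, 2.98 and 3.47 in effector Th1 cells and 2.91, 2.92 and 2.91 in effector Th2 cells, against 4.69, 5.13 and 5.20 in naive cells. No effector sample reached the lowest naive one. It fell by 1.86 ± 0.28 in effector Th1 (3.62-fold, adjusted p = 0.000105) and by 2.09 ± 0.28 in effector Th2 cells (4.27-fold, adjusted p = 2.86e-05). Rab30 (Entrez 75985), a GTPase of the Golgi, had 3.96, 4.51 and 4.05 in effector Th1 and 3.99, 4.50 and 4.18 in effector Th2 cells, against 5.81, 5.61 and 5.63 in naive cells. The groups again did not overlap, and effector samples of the same number lay close together. Rab30 fell by 1.51 ± 0.24 in effector Th1 (adjusted p = 0.000153) and by 1.46 ± 0.24 in effector Th2 cells (adjusted p = 0.000249). Sec61g, Snx5, Rab3ip and Rab30 kept these calls in each fit that left out 1 sample.

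Calls of the remaining genes in effector cells were less stable. Rab14, a GTPase between the Golgi and early endosomes, had 3.28, 3.78 and 4.46 in effector Th1 and 3.56, 3.83 and 4.38 in effector Th2 cells, against 5.01, 4.72 and 5.18 in naive cells. All effector samples were below all naive ones, with those numbered 3 the highest of their groups. The fall of 1.13 ± 0.32 in effector Th1 cells (adjusted p = 0.0289) lost its call without naive 1 or 3 or effector Th1 1 or 2 (adjusted p = 0.0828 to 0.176), and that of 1.05 ± 0.32 in effector Th2 cells (adjusted p = 0.0459) without any one naive sample or effector Th2 1 or 2 (0.0607 to 0.212). Both calls also ended with median centring (adjusted p = 0.0838 and 0.133), as did those of Arf4 and Snx10 below (0.146 and 0.141), and the Th2 call ended with array pattern as a random block (0.052). Arf4, a GTPase of the Golgi and of the compartment before it, had 6.20, 5.31 and 5.68 in effector Th1 cells against 6.73, 6.40 and 6.87 in naive cells. Its fall of 0.94 ± 0.27 (adjusted p = 0.0301) lost its call without naive 1 or 3 or effector Th1 2 or 3 (0.0926 to 0.156), and on the mean of its 2 reporters it did not pass (-0.71, adjusted p = 0.103). Rab24, an atypical GTPase linked to autophagy, had 5.38, 5.45 and 5.79 in effector Th1 cells against 4.14, 4.50 and 4.98 in naive cells, and rose by 1.00 ± 0.30 (adjusted p = 0.0347). Only the fits without naive 3 kept that call (0.0598 to 0.180 in the other 5).

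In effector Th2 cells 2 further genes rose. Ap1s1, the small subunit of the AP-1 adaptor that sorts between the Golgi and endosomes, had 4.79, 4.45 and 4.99 in effector Th2 cells against 3.21, 2.41 and 3.36 in naive cells. It rose by 1.75 ± 0.45 (3.36-fold, adjusted p = 0.0165), and the call was lost without naive 2 or effector Th2 1 or 3 (0.0574 to 0.0987). Snx10, a sorting nexin of endosomes and lysosomes, was dim, with 2.97, 3.21 and 3.92 in effector Th2 cells against 1.88, 1.74 and 2.44 in naive cells. Its rise of 1.35 ± 0.41 (adjusted p = 0.0459) was kept only without naive 3 (0.0548 to 0.239 in the other 5 fits), and it ended with 8 in place of 1 added before the log (0.0653). In effector Th1 cells the difference from naive cells was 1.38 for Ap1s1 (adjusted p = 0.0628). Effector Th1 minus effector Th2 was called for neither gene.

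Same-numbered samples deviated together, and with sample number as a block 20 of 80 genes were called in effector Th1 (25%, against 16.7% of all reporters) and 17 in effector Th2 cells (21.2%, against 15.2%). Each call made with no block was also made with it. Genes called in both lineages with the block, and in neither without it, included the COPI coat gene Copb2 (1.18 in effector Th1 and 1.14 in effector Th2 cells) and the retriever gene Vps35l (1.54 and 1.52), both above naive cells. The HOPS gene Vps16 (-0.74 and -0.67) and the recycling endosome GTPase gene Rab11b (-0.91 and -0.86) were below. A dimmer reporter of Rab11b differed by -0.35 (adjusted p = 0.755) and -0.32 (adjusted p = 0.807) with no block. Adjusted p with the block ran from 0.0374 to 0.0455 for Copb2 and Vps35l in effector Th2 cells, and was 0.011 for Vps16 and 0.0072 for Rab11b there.

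**Figure D2:**
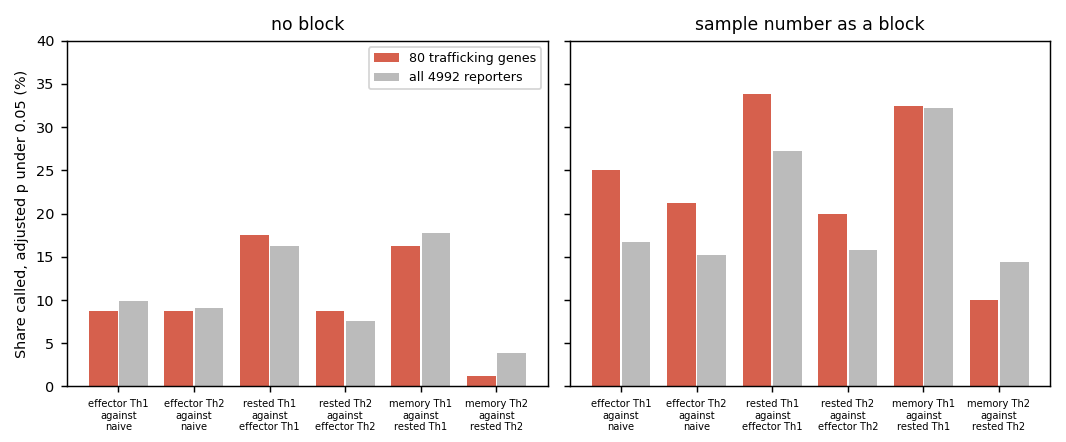
Share of the 80 trafficking genes (red) and of all 4992 reporters (grey) called in the 6 steps between stages, with no block (left) and with sample number as a block (right); bars start at 0%. With no block the 2 shares lie close together in 5 steps, and in memory Th2 against rested Th2 cells 1.25% of the genes and 3.91% of reporters were called.

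Marker lists of other cells moved in these comparisons too. Of 15 myeloid markers 7 were measured and 3 were lower in each effector group than in naive cells, with summed intensities of 126.1 to 220.0 in effector Th1 and 133.0 to 182.1 in effector Th2 cells, against 248.8 to 324.4 in naive cells. Lyz2 and Fcer1g were among the 3, and no marker was at 0. Of 8 granulocyte markers 3 were measured and 1, S100a9, was lower in each (summed 58.8 to 170.1 and 59.99 to 153.1, against 148.0 to 244.6). Of 9 stromal markers 3 were measured and 1, Fn1, was higher in each (summed 127.6 to 181.1 and 126.7 to 185.8, against 36.1 to 59.5). The 1 B cell marker measured, Blnk, summed to 13.0 to 18.8 and 13.3 to 16.4 in effector cells, against 31.9 to 41.0 in naive cells, and was not called. The part of such cells in the results was not tested.

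Snx5 had the largest changes of all 80 genes in the steps to and from the effector stage, and changes of that size were seen on only 1 of its 3 reporters. Snx5 (Entrez 69178) encodes a sorting nexin with a membrane-bending BAR domain that helps carry cargo from endosomes to the Golgi. On the brightest reporter it had 8.75, 7.37 and 7.93 in effector Th1 and 8.12, 7.37 and 8.01 in effector Th2 cells, against 4.00, 4.73 and 4.72 in naive cells. The lowest effector value lay far above the highest naive one. The rise was 3.53 ± 0.35 in effector Th1 (11.6-fold, adjusted p = 5.50e-07) and 3.35 ± 0.35 in effector Th2 cells (10.2-fold, adjusted p = 1.33e-06). On the second reporter the differences were 0.19 (adjusted p = 0.826) and -0.20 (adjusted p = 0.825), and on the dimmest, which carries the same accession as the brightest, -0.51 (adjusted p = 0.545) and -0.54 (adjusted p = 0.544). The reporters thus did not move together, and which of them reads Snx5 was not tested. Over the whole array, 93 accessions stood at several reporters, and the median correlation of 2 such reporters over 21 samples was 0.265.

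**Figure D3:**
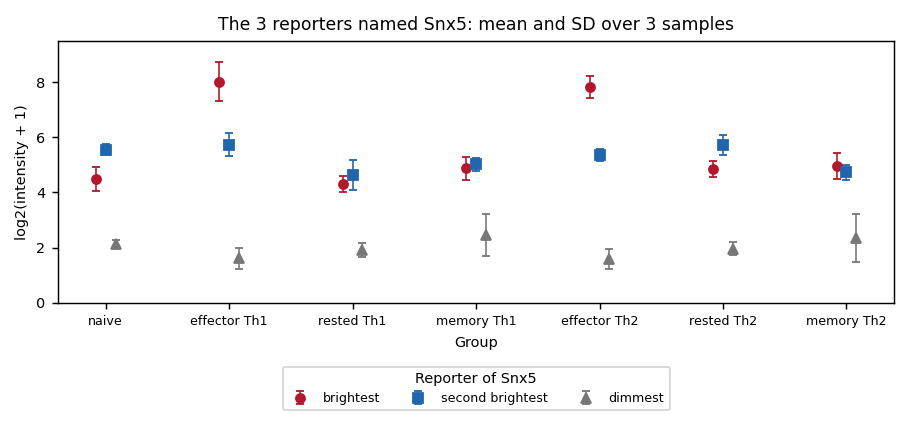
Mean and SD (n = 3 samples) of log2(intensity + 1) for the 3 reporters named Snx5 in the 7 groups. The brightest reporter is near 8 in both effector groups and between 4.31 and 4.95 in the other groups, while neither of the other reporters is called in effector against naive cells, and the second is lower in rested than in effector Th1 cells.

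In rested Th1 cells Rab30 and Rab3ip were higher and Snx5 and Sec61g lower than in effector Th1 cells, and Ap4s1 of the AP-4 adaptor and the COPII gene Sec24d rose as well. In all, 7 genes rose and 7 fell, where 7.61% of all reporters rose and 8.61% fell, and the 14 calls made 17.5% of genes against 16.2% of reporters. With median centring 5 rose and 11 fell, where 5.71% of all reporters rose and 9.5% fell. In rested Th2 cells 3 genes rose and 4 fell, where 3.45% and 4.13% of all reporters did, or 1 and 4 with median centring, where 2.08% and 4.27% did. The median change of the 80 genes was -0.18 in rested Th1 and -0.12 in rested Th2 cells, and -0.01 and 0.00 over all reporters. Rested and effector comparisons share the effector samples with those against naive cells, so that opposite signs in the pair are in part built in.

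In rested cells Rab30 had 5.93, 6.11 and 6.40 (Th1) and 5.92, 5.84 and 5.89 (Th2), against 3.96, 4.51 and 4.05 in effector Th1 and 3.99, 4.50 and 4.18 in effector Th2 cells. It rose by 1.97 ± 0.24 in Th1 (3.93-fold, adjusted p = 7.17e-06) and by 1.66 ± 0.24 in Th2 cells (3.16-fold, adjusted p = 8.75e-05), without overlap in either. Rab3ip had 5.27, 5.03 and 4.37 in rested Th1 cells against 3.00, 2.98 and 3.47 in effector Th1 cells, a rise of 1.74 ± 0.28 (adjusted p = 0.000188). In rested Th2 cells it had 4.20, 4.10 and 3.28, against 2.91, 2.92 and 2.91 in effector Th2 cells. All rested samples were again above all effector ones, with rested Th2 3 close to the effector samples. That rise of 0.95 ± 0.28 (adjusted p = 0.0422) was kept only without rested Th2 3 (0.0881 to 0.213 in the other 5 fits), and it ended with median centring (0.0624) and with 8 in place of 1 added before the log (0.0642).

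Sec61g had 5.97, 5.68 and 5.51 in rested Th1 and 5.43, 5.22 and 5.46 in rested Th2 cells, against 7.25, 7.35 and 7.17 in effector Th1 and 7.26, 7.37 and 7.18 in effector Th2 cells. It fell by 1.54 ± 0.21 in Th1 (adjusted p = 3.08e-05) and by 1.90 ± 0.21 in Th2 cells (adjusted p = 6.94e-06). The signal peptidase gene Sec11c had 4.94, 4.51 and 4.83 in rested Th2 cells against 5.79, 5.42 and 5.70 in effector Th2 cells. It fell by 0.87 ± 0.25 there (adjusted p = 0.0365), a call kept only without effector Th2 2 (0.0677 to 0.181 in the other 5 fits). On its brightest reporter Snx5 had 4.61, 4.05 and 4.27 in rested Th1 cells against 8.75, 7.37 and 7.93 in effector Th1 cells, a fall of 3.71 ± 0.35 (13.0-fold, adjusted p = 4.14e-07). In rested Th2 cells it fell by 3.00 ± 0.35 (7.99-fold, adjusted p = 1.01e-05). The second reporter differed by -1.11 (adjusted p = 0.0112) in Th1 and by 0.37 (adjusted p = 0.588) in Th2 cells, so in Th1 cells it fell on that reporter as well.

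Among coats and adaptors, Ap4s1 (Entrez 11782), the small subunit of the AP-4 adaptor of the trans-Golgi, was highest in rested Th1 cells. It had 6.13, 5.19 and 5.69 in rested Th1 cells against 4.19, 3.99 and 3.72 in effector Th1 cells. The rise was 1.70 ± 0.26 (3.25-fold, adjusted p = 0.00012), and no sample of another group reached the lowest rested Th1 value. Sec24d, a cargo-binding subunit of the COPII coat, had 4.63, 4.33 and 6.05 in rested Th1 cells against 3.53, 3.56 and 3.52 in effector Th1 cells. Rested Th1 3 was far above the rest, and the rise of 1.46 ± 0.31 (adjusted p = 0.00271) kept its call without it or any other 1 sample (adjusted p at most 0.0131). In rested Th2 cells the differences were 0.60 for Ap4s1 (adjusted p = 0.212) and 0.65 for Sec24d (adjusted p = 0.268). Ap1s1 had 3.00, 2.93 and 3.34 in rested Th2 cells against 4.79, 4.45 and 4.99 in effector Th2 cells and fell by 1.65 ± 0.45 (adjusted p = 0.0284). Without effector Th2 1 or 3 or rested Th2 1 or 2 that call was lost (0.0909 to 0.127), and likewise with array pattern as a random block (0.122).

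Of the endosomal GTPases, Rab11b of recycling endosomes rose in both lineages. It had 7.51, 7.47 and 6.77 in rested Th1 cells against 6.09, 6.59 and 5.47 in effector Th1 cells, and 7.22, 7.21 and 6.94 in rested Th2 cells against 6.12, 6.64 and 5.56 in effector Th2 cells. The rises were 1.20 ± 0.31 (adjusted p = 0.00983) and 1.02 ± 0.31 (adjusted p = 0.0481), while a second, dimmer reporter differed by 0.94 (adjusted p = 0.141) and 0.69 (adjusted p = 0.438), and the mean of both did not pass in Th2 cells (0.85, adjusted p = 0.181). The Th1 call was lost without effector Th1 3 (0.0822), the Th2 call without any one sample but effector Th2 2 (0.0696 to 0.31), and both with median centring (0.149 and 0.224). Vamp3, a SNARE of recycling endosomes, had 6.71, 6.76 and 6.77 in rested Th1 cells against 5.86, 6.02 and 5.41 in effector Th1 cells and rose by 0.98 ± 0.24 (adjusted p = 0.00697). Its 3 rested values lay within 0.1 of each other, and the call was lost without effector Th1 3 (0.0561) and with median centring (0.235). Vps26c of the retriever complex had 2.58, 4.29 and 3.28 in rested Th1 cells against 2.65, 1.98 and 1.85 in effector Th1 cells. Those groups overlapped, and the rise of 1.22 ± 0.33 (adjusted p = 0.0134) was lost without effector Th1 3 (0.0756) or rested Th1 2 (0.093) and with pattern as a random block (0.0785).

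Beside Snx5 and Sec61g, 5 genes fell in rested Th1 cells: Vps41, Snx3, Chmp5, Rab2a and Snx6. Vps41, of the HOPS tether that joins late endosomes to lysosomes, had 5.73, 5.85 and 6.23 in rested Th1 cells against 7.07, 7.36 and 7.10 in effector Th1 cells. The fall of 1.24 ± 0.24 (adjusted p = 0.00121) held without any 1 sample, but a dim second reporter of the same accession differed by 0.68 (adjusted p = 0.338), and the mean of both did not pass (-0.28, adjusted p = 0.493). Snx3, a sorting nexin that works with retromer, had 3.75, 3.76 and 4.17 in rested Th1 cells against 5.47, 4.35 and 5.52 in effector Th1 cells and fell by 1.22 ± 0.35 (adjusted p = 0.0195). Chmp5, an ESCRT-III protein, had 3.07, 2.46 and 3.46 in rested Th1 cells against 3.80, 3.81 and 4.72 in effector Th1 cells and fell by 1.12 ± 0.31 (adjusted p = 0.0151). Neither pair of groups overlapped, with effector Th1 2 the nearest to rested cells for Snx3. The GTPase Rab2a, between endoplasmic reticulum and Golgi, had 4.34, 4.42 and 4.89 in rested Th1 cells against 5.55, 4.99 and 5.40 in effector Th1 cells and fell by 0.77 ± 0.22 (adjusted p = 0.0193). Snx6, a partner of retromer, fell by 0.98 ± 0.33 (adjusted p = 0.0476) with groups that overlapped.

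These 4 calls rested on few samples. That of Snx3 was lost without effector Th1 1 or 3 or rested Th1 1 or 2 (0.0636 to 0.11), and that of Chmp5 without effector Th1 3 (0.118) or rested Th1 2 (0.0911). For Rab2a the same 4 samples as for Snx3 ended the call (0.067 to 0.0981), as did pattern as a random block (0.0611). For Snx6 every fit without 1 sample but that without effector Th1 2 ended it (0.0718 to 0.269), and so did median centring (0.0881) and the pattern block (0.079). With sample number as a block 27 genes were called in rested Th1 (33.8%, against 27.3% of reporters) and 16 in rested Th2 cells (20%, against 15.8%). The block added Copb2 (-1.13 in rested Th1 and -1.26 in rested Th2 cells), the retromer gene Vps29 (-0.80 and -0.79), Arf1 (-0.73 and -0.69), Arf2 (1.23 and 1.11) and Vps16 (0.59 and 0.57) in both lineages. Myeloid markers summed to 201.8 to 347.3 in rested Th1 and 238.1 to 392.4 in rested Th2 cells, with 2 of 7 higher than in effector cells of each lineage, and granulocyte markers to 230.5 to 373.8 and 166.4 to 284.3. Of the 3 granulocyte markers Csf3r was called higher in rested than in effector Th1 cells (1.85, adjusted p = 0.00404) and none in Th2 cells. The 2 erythroid and platelet markers summed to 10.97 to 15.3 in rested Th1 cells against 6.06 to 6.41 in effector Th1 cells, with Itga2b called higher (0.90, adjusted p = 0.010), and to 5.19 to 8.70 in rested Th2 cells against 5.849 to 6.498 in effector Th2 cells. Stromal markers summed to 41.3 to 94.4 and 42.0 to 60.5, with 1 of the 3 measured, Fn1, called lower in each. The median change of the 3 was 0.15 in rested Th1 and -0.27 in rested Th2 cells, so the sums do not stand for each marker. The part of all these markers in the results was not tested.

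**Figure D4:**
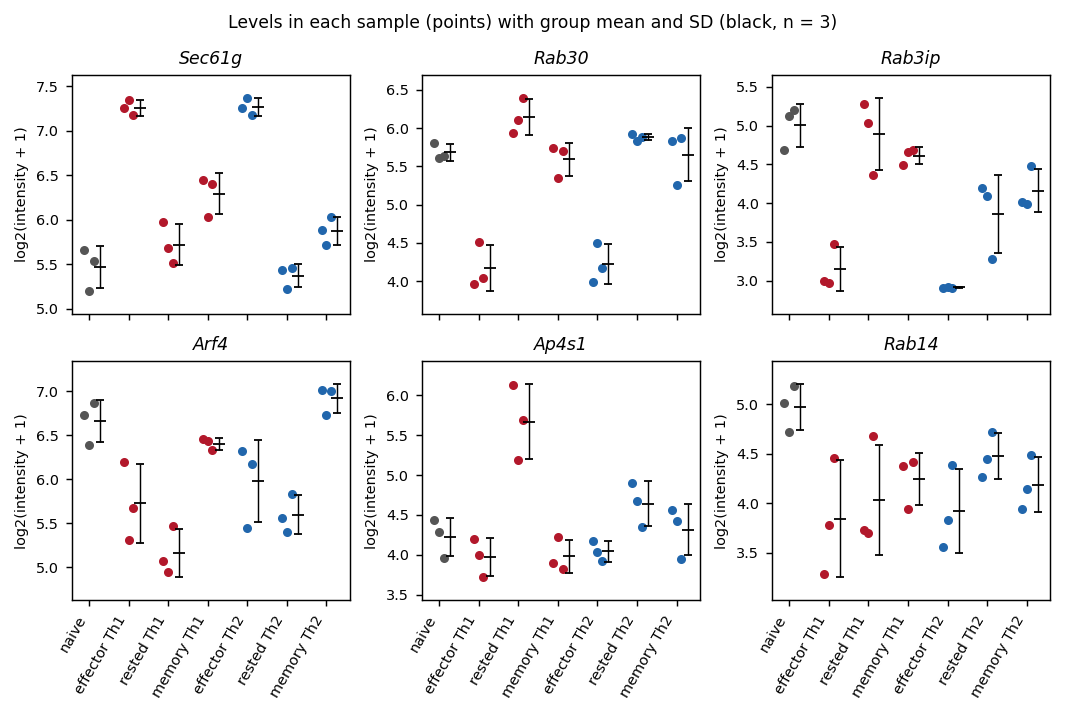
Log2(intensity + 1) of 6 genes in each sample of the 7 groups (points; Th1 red, Th2 blue, naive grey), with group mean and SD in black (n = 3). Sec61g is at 7.17 or more in all 6 effector samples and lower in all others, and Ap4s1 is at 5.19 or more in the 3 rested Th1 samples alone.

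In memory against rested Th1 cells 9 trafficking genes rose and 4 fell, where 9.42% of all reporters rose and 8.35% fell. The median change was 0.13, with 0.09 over all reporters. The 13 calls were 16.2% of the genes, near the 17.8% of reporters. The genes that rose belong to the early secretory route (Arf4, Sec61a2, Sec13, Sec24a, Rab2a) and to endosomes (Vps29, Chmp2b, Rab5c, Vps16). These are the routes for which members were chosen. In memory Th2 against rested Th2 cells 1 gene, Arf4, rose and none fell by limma with no block, where 2.28% of all reporters rose and 1.62% fell, and 12 genes had an unadjusted p under 0.05 (15% of genes, against 19.1% of reporters). The Th1 and the Th2 step differed for no gene in the test of that difference with no block (0.0601% of all reporters called), and 4 genes had an unadjusted p under 0.05 there (5% of genes, against 6.87% of reporters). Memory and effector comparisons share the rested samples, so that opposite signs in the steps to and from rested cells are in part built in.

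Arf4 (Entrez 11843) rose in both lineages. It had 6.46, 6.43 and 6.33 in memory Th1 cells against 5.07, 4.95 and 5.47 in rested Th1 cells, and 7.02, 6.73 and 7.01 in memory Th2 cells against 5.56, 5.40 and 5.84 in rested Th2 cells. Every memory sample was above every rested sample of either lineage. The rise was 1.24 ± 0.27 in Th1 (2.37-fold, adjusted p = 0.00424) and 1.32 ± 0.27 in Th2 cells (2.5-fold, adjusted p = 0.00668), and no single sample decided either call. A dim second reporter of the same accession differed by 0.81 (adjusted p = 0.112) and 0.78 (adjusted p = 0.221) in the same direction. Sec13, of the outer COPII coat and also of nuclear pores, had 7.46, 7.87 and 7.43 in memory Th1 cells against 6.17, 6.39 and 7.07 in rested Th1 cells and rose by 1.04 ± 0.25 (adjusted p = 0.00804). Sec24a, a cargo-binding subunit of that coat, had 4.65, 5.33 and 5.26 in memory Th1 cells against 4.05, 4.47 and 3.81 in rested Th1 cells and rose by 0.97 ± 0.23 (adjusted p = 0.00781). The coat genes did not overlap between the groups, and neither call was lost without any 1 sample.

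For Rab2a memory Th1 cells had 5.35, 5.46 and 5.44, against 4.34, 4.42 and 4.89 in rested Th1 cells, a rise of 0.87 ± 0.22 (adjusted p = 0.0106). Sec61a2 rose by 1.10 ± 0.33 (adjusted p = 0.0287), with 6.63, 7.06 and 7.36 in memory Th1 cells against 5.46, 5.86 and 6.44 in rested Th1 cells. On a second reporter of the same accession Sec61a2 differed by 0.06 (adjusted p = 0.920), and the mean of both did not pass (0.58, adjusted p = 0.183). It was also lost without rested Th1 1 or 2 or memory Th1 2 or 3 (0.0562 to 0.124).

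Among endosomal genes Chmp2b, an ESCRT-III protein, had 7.23, 7.29 and 7.18 in memory Th1 cells against 6.29, 6.01 and 5.94 in rested Th1 cells. It rose by 1.15 ± 0.21 (2.23-fold, adjusted p = 0.001). Vps29, a subunit shared by retromer and retriever, had 4.35, 3.68 and 4.11 in memory Th1 cells against 2.90, 2.66 and 3.01 in rested Th1 cells and rose by 1.19 ± 0.27 (adjusted p = 0.00621). The samples of these 2 genes did not overlap between groups, and both calls held without any 1 sample. Rab5c, a GTPase of early endosomes, was dim, with 3.00, 2.38 and 3.27 in memory Th1 cells against 1.92, 2.04 and 1.37 in rested Th1 cells. Its rise of 1.11 ± 0.37 (adjusted p = 0.0412) was kept only without memory Th1 2 (0.057 to 0.152 in the other 5 fits) and ended with median centring (0.0675) and with the pattern block (0.0514). Vps16, of the core of HOPS, rose by 0.90 ± 0.28 (adjusted p = 0.0335), and the call was lost without rested Th1 1 or 2 or memory Th1 1 or 3 (0.0606 to 0.15).

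The 4 falls in memory Th1 cells were those of Ap4s1, Rab24, Snx2 and Vamp3. Ap4s1 had 3.89, 4.22 and 3.82 in memory Th1 cells against 6.13, 5.19 and 5.69 in rested Th1 cells and fell by 1.69 ± 0.26 (3.23-fold, adjusted p = 0.000249). Rab24 had 4.36, 3.82 and 4.90 in memory Th1 cells against 5.23, 5.86 and 6.0 in rested Th1 cells and fell by 1.34 ± 0.30 (adjusted p = 0.00477). No single sample decided these 2 calls. Snx2, a retromer-associated sorting nexin, had 2.27, 2.52 and 1.54 in memory Th1 cells against 3.80, 3.38 and 2.75 in rested Th1 cells. Its fall of 1.20 ± 0.36 (adjusted p = 0.027) was lost without rested Th1 1 or 2 or memory Th1 3 (0.0728 to 0.129) and with the pattern block (0.0604). Vamp3 had 5.77, 6.20 and 5.60 in memory Th1 cells against 6.71, 6.76 and 6.77 in rested Th1 cells, and its fall of 0.89 ± 0.24 (adjusted p = 0.0159) was lost without memory Th1 3 (0.0713) and with median centring (0.246).

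With sample number as a block 26 genes were called in the Th1 step (32.5%, against 32.2% of reporters) and 8 in the Th2 step (10%, against 14.4%). The Th2 calls that the block added were Rab24 (-0.87, adjusted p = 0.0104), Vps28 of ESCRT-I (-0.86, adjusted p = 0.0052), Sec24c (-0.65), Sec61a2 (0.61), Vps16 (0.63), Chmp2b (0.65, adjusted p = 0.0221) and Vps29 (0.78, adjusted p = 0.0246). Of these, 5 genes had the same sign in the Th1 step and were called there as well. Summed myeloid markers were 189.6 to 300.2 in memory Th1 and 224.1 to 276.9 in memory Th2 cells, with 2 of 7 lower than in rested Th1 and 1 lower than in rested Th2 cells. Granulocyte markers summed to 129.7 to 170.7 and 132.7 to 206.1, with 2 of 3 and 0 of 3 lower. Erythroid and platelet markers, 2 of 8 measured and both called lower, summed to 2.64 to 5.62 in memory Th1 against 10.97 to 15.3 in rested Th1 cells. Stromal markers summed to 28.8 to 43.5 against 41.3 to 94.4 there. Of the 3 stromal markers measured 1 was called lower, and the median change of the 3 was 0.08. The part of all these markers in the changes was not tested.

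Memory cells were compared with naive cells, which had not met antigen. No trafficking gene was called with no block in memory Th1 (0.781% of all reporters called) or in memory Th2 cells (0.28%). At an unadjusted p under 0.05 there were 7 genes in memory Th1 (8.75%, against 12.6% of reporters) and 4 in memory Th2 cells (5.0%, against 8.83%). Vps29 had 4.35, 3.68 and 4.11 in memory Th1 cells against 2.53, 3.05 and 3.17 in naive cells, without overlap, a difference of 1.13 ± 0.27 (adjusted p = 0.0557). Sec61g had 6.44, 6.03 and 6.40 in memory Th1 cells against 5.66, 5.20 and 5.54 in naive cells, with differences of 0.79, 0.83 and 0.87 between same-numbered samples (mean 0.83 ± 0.21, adjusted p = 0.0692). With sample number as a block 5 genes were called in memory Th1 cells (5.97% of reporters): Vps29 (adjusted p = 0.00548), Sec61g (0.0133), Vps16 (0.75, 0.0179), Sec61a2 (0.68, 0.0227) and Vps51 (-1.0, 0.0425). In memory Th2 cells that block called none. Rab30 and Snx5 differed from naive cells by -0.09 and 0.38 in memory Th1 and by -0.03 and 0.46 in memory Th2 cells, and passed no test. Some markers of other cells differed in these comparisons. Of 7 myeloid markers measured 2 were called lower in each: Lyz2, by 5.23 in memory Th1 and 3.25 in memory Th2 cells, and Fcer1g. The median change of the 7 was -0.19 in memory Th1 and -0.01 in memory Th2 cells. Of 3 granulocyte markers measured 2, S100a9 and Ltf, were called lower in memory Th1 cells and 1, S100a9, in memory Th2 cells. The part of these markers of other cells was not tested.

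Naive and memory cells numbered 1 and 3 shared array patterns, and with the 10 patterns as a random block (estimated correlation 0.784) 31 genes were called in memory Th1 cells, against 29.8% of reporters, and 26 in memory Th2 cells, against 23.8%. Both within-pattern pairs went the same way for 28 genes above and 38 below naive cells in memory Th1 cells, 82.5% of genes against 73.9% of reporters. For memory Th2 cells these were 31 above and 38 below, 86.2% against 77.8%. Within a pattern the 4 spot values of a reporter gave nearly the same ratio between samples (range at most 6.3e-05 on the log2 scale as a median over reporters), so these spots are not independent measurements.

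No trafficking gene was called between Th1 and Th2 cells of 1 stage with no block, in a fit that does not use the array patterns these samples share. The shares of all reporters called were 0.18% for effector Th1 against effector Th2, 0.361% for rested and 0.2% for memory cells. At an unadjusted p under 0.05 there were 0, 12 and 0 genes (0%, 15% and 0%), where 2.1%, 9.05% and 3.99% of reporters passed. At the effector stage Sec61g differed by -0.01 ± 0.21, Snx5 by 0.19 ± 0.35 and Rab30 by -0.05 ± 0.24 between Th1 and Th2 cells, each less than its SE.

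Ap4s1, Rab3ip and Rab2a had the lowest unadjusted p of the 80 genes between rested Th1 and rested Th2 cells. Ap4s1 had 6.13, 5.19 and 5.69 in rested Th1 cells against 4.90, 4.68 and 4.34 in rested Th2 cells, a difference of 1.03 ± 0.26 (adjusted p = 0.114). The groups did not overlap, and same-numbered samples differed by 1.23, 0.51 and 1.34. Rab2a had 4.34, 4.42 and 4.89 in rested Th1 cells against 5.43, 5.32 and 5.27 in rested Th2 cells, a difference of -0.79 ± 0.22 (adjusted p = 0.152). Sample number as a block called these 2 genes (adjusted p = 0.0139 for Ap4s1 and 0.0309 for Rab2a), and 2.36% of reporters. Rab3ip was higher by 1.07, 0.93 and 1.09 in the 3 pairs, with no overlap (mean 1.03 ± 0.28, adjusted p = 0.134, or 0.0572 with that block).

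With the pattern as a random block 27 genes were called between rested Th1 and rested Th2 cells, against 20.1% of reporters. In rested Th1 cells 11 were higher, where 8.99% of reporters were, and 16 lower, where 11.1% were. Of 9 ESCRT genes 5 were lower (Chmp2a, Chmp2b, Chmp5, Vps4b, Vps28) and 0 higher. Of 7 coat genes 3 were lower (Sec13, Sec24a, Sec24c) and 1, Sec24d, was higher by 0.67. Of 14 sorting nexin, retromer and retriever genes 3 were lower (Snx3, Snx4, Snx5) and 1, Vps26c, was higher. Of 13 Arf and adaptor genes 4 were higher (Ap1g1, Ap1s1, Ap2s1, Ap4s1) and 1, Arf4, was lower. These counts by role carry no test of the role. All 3 pairs went the same way for 16 genes above and 32 below, 60% of genes against 44.8% of reporters. For effector cells the share was 41.2% against 49.2% and for memory cells 40% against 48.9%. Pattern as a random block called 0 genes between effector Th1 and effector Th2 cells (2.42% of reporters) and 6 between memory Th1 and memory Th2 cells (7.93%). Of 3 stromal markers measured 1, Sparc, was called higher in rested Th1 than in rested Th2 cells, by 1.69, and the median of the 3 was 0.17. In memory Th1 against memory Th2 cells 1 of 7 myeloid markers, Lyz2, was called lower, with a median of -0.18 over the 7. Of 3 granulocyte markers 2, S100a9 and Ltf, were called lower there. The part of these markers was not tested.

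**Figure D5:**
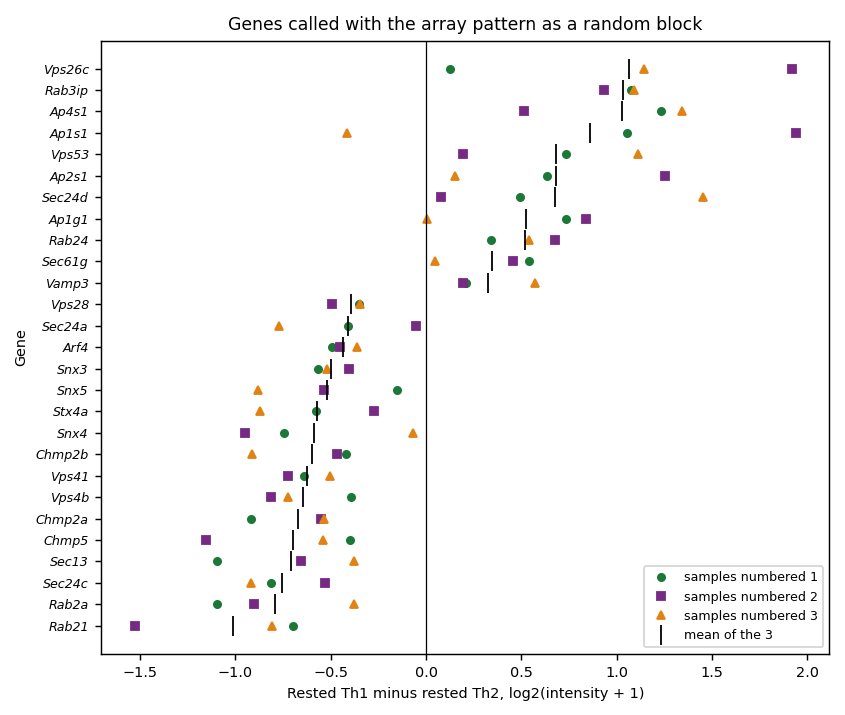
Rested Th1 minus rested Th2 on the log2(intensity + 1) scale for the 27 genes called with array pattern as a random block; symbols are the 3 pairs of same-numbered samples and the bar their mean. Ap4s1 and Rab3ip lie above 0 and Rab2a below 0 in all 3 pairs, while Ap1s1 has 1 pair below 0.

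The changes of Th1 cells between stages were also set against those of Th2 cells, starting with effector to rested. No gene was called for that difference with no block (0.1% of reporters), and 4 had an unadjusted p under 0.05 (5% of genes, against 3.49% of reporters), led by Ap4s1 (1.10 ± 0.37, adjusted p = 0.824). With the pattern as a random block 9 genes were called, against 7.97% of reporters. For the step from rested to memory cells Ap4s1 differed by -1.36 ± 0.37 (adjusted p = 0.191), and sample number as a block called it alone (adjusted p = 0.0265), with 1.04% of reporters. There the pattern block called 19 genes, against 16.5% of reporters.

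By role, shares of genes called are set beside those of all reporters, which were 9.88% in effector Th1 against naive, 16.2% in rested against effector Th1 and 17.8% in memory against rested Th1 cells. Of 9 ESCRT genes 1 was called in rested against effector Th1 cells (Chmp5) and 1 in memory against rested Th1 cells (Chmp2b), which is 11.1% of them in each step, and none in either effector group against naive cells with no block. Of 8 SNARE genes with Vps45, 1 (Vamp3) was called in the steps to and from rested Th1 cells, or 12.5% in each. Of 7 tether genes 1 was called in each of those steps, Vps41 in the first and Vps16 in the second, or 14.3% in each. The 16 Rab genes with Rab3ip gave 4 calls in effector Th1 cells, or 25%, of which 1 was above naive cells. Of 4 genes of protein entry and signal peptidase 1 was called there, also 25%. The share there was 7.14% for sorting nexin, retromer and retriever genes, 7.69% for Arf and adaptor genes and 0% for coat genes. Sorting nexin, retromer and retriever genes reached 28.6% in rested against effector Th1 cells, and coat genes 28.6% in memory against rested Th1 cells. Group means of Ap3m1, Sec63 and Vps45 lay closest together over the 7 groups among all 80 genes. For 2 of the 10 genes with several reporters, the dimmer reporter was called where the brighter was not. The dimmer one of Rab10 changed by -1.52 (adjusted p = 0.00825) in rested against effector Th1 cells and by 2.24 (adjusted p = 0.000551) in memory against rested Th1 cells, and the brighter one by -0.42 and 0.21. That of Ap3s2 changed by 0.83 and -1.35 in those steps, and the brighter one differed by 0.62 and 0.52. Vps72 and Sec14l2, which do other work, were called in no comparison with no block.

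Other genes of the same routes were taken from 8 lists of coat, adaptor, SNARE, GTPase and lipid kinase partners, of which 70 were measured. In effector against naive cells 2 rose and 4 fell in Th1 and 3 rose and 4 fell in Th2 cells. In rested against effector cells 5 rose and 4 fell in Th1 and 3 rose and 2 fell in Th2 cells, and in memory against rested cells 7 rose and 6 fell in Th1 and 0 rose and 2 fell in Th2 cells. The shares of all reporters that rose and fell in these steps were 5.53% and 4.35% in effector Th1, 5.31% and 3.83% in effector Th2, 7.61% and 8.61% in rested Th1, 3.45% and 4.13% in rested Th2, 9.42% and 8.35% in memory Th1, and 2.28% and 1.62% in memory Th2 cells. Tmed9, a cargo carrier between endoplasmic reticulum and Golgi, had 7.72 to 7.86 in effector Th1 and 8.15 to 8.51 in effector Th2 cells, against 6.04 to 6.41 in naive cells. It rose by 1.54 ± 0.23 (adjusted p = 0.000109) and 2.10 ± 0.23 (adjusted p = 2.77e-06), and fell in rested cells by 1.23 and 1.84, in the same steps as Sec61g. The Golgi tether gene Cog5 fell in effector Th1 cells by 1.72 ± 0.33 and in effector Th2 cells by 1.32 ± 0.33.

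Among clathrin-related genes, Itsn2, an endocytic scaffold, fell by 1.25 ± 0.23 in effector Th1 and by 1.01 ± 0.23 in effector Th2 cells and rose by 0.84 in rested Th1 and 1.16 in rested Th2 cells. Itsn2 also rose in memory against rested Th1 cells, by 0.81 ± 0.23 (adjusted p = 0.0205). Aak1, a kinase of the AP-2 adaptor, fell by 1.23 ± 0.28 in each effector group and rose by 1.01 and 1.27 in rested cells. Gdi2, which recycles Rab GTPases from membranes, had 5.61 to 6.84 in rested Th1 cells against 7.28 to 8.32 in effector Th1 cells and 7.90 to 8.36 in memory Th1 cells against those rested cells. It fell by 1.84 ± 0.34 (adjusted p = 0.00075) and then rose by 1.96 ± 0.34 (adjusted p = 0.00071). Both differences use the same rested Th1 samples, so their opposite signs are in part built in. Snap25, a SNARE, rose by 1.49 ± 0.30 in rested Th1 and by 1.79 ± 0.30 in rested Th2 cells. Tsg101 of ESCRT-I fell in memory cells of both lineages, by 1.26 ± 0.36 in Th1 (adjusted p = 0.022) and 1.31 ± 0.36 in Th2 cells (adjusted p = 0.0463), calls that 2 and 4 of the fits without 1 sample ended.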

How the data were processed

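Total RNA of mouse CD4+ T cells, 5 to 15 µg per the labels' protocols, was labelled with 33P and hybridised to 42 cDNA arrays, 2 for each of 21 samples. The authors deposited 1 linear intensity per spot, for 9600 spots and 4992 reporters, with no background or detection value; how images were read and normalized is not given in the sources used here. In the deposited series matrix each array holds these intensities times 1 constant. The labels' titles gave the groups, since for memory Th2 the description reads RM and the title M. The GEO platform annotation named 3798 reporters, 3626 of them with 1 gene, and 3605 of these matched RefSeq (GRCm38.p6).

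Arrays were quantile-normalized together, 1 was added, log2 taken, and spots and then arrays of a sample averaged. Limma 3.58.1 (R 4.3.3) fitted the 7 groups at once, with Benjamini-Hochberg adjustment over 4992 reporters. The fit was tested on simulated data. Alternatives were median centring, a pseudocount of 8, the series matrix values, dim reporters left out, the mean over reporters of a gene, sample number as a block, array pattern as a random block, and leaving out each sample. Same-numbered samples deviated together in all 11 comparisons of groups (r = 0.139 to 0.909), and blocked values stand beside results they change. In the steps between stages, where no array pattern was shared, r was 0.139 to 0.676. The labels do not say what a shared number marks, so the block assumes a pairing that they do not state. The number of arrays limits precision. Members, gene lists and tests were chosen with earlier results of these data known. Values sample by sample are given for called genes whose groups did not overlap, up to 6 a direction, and for others named after their values were seen. No column of unknown samples was present.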

Additional observations from a re-analysis of the deposited data

How the results depend on the processing

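None of the 49 calls changed direction under any alternative run, and all 49 were called with sample number as a block. Calls were lost for 11 of 49 with median centring, 11 with the series matrix values, 7 with array pattern as a random block, 4 with the mean over reporters of a gene and 2 with a pseudocount of 8. Without dim reporters 48 could be tested and all were called, and 81 of 294 fits without 1 sample lost the call. The cause of these losses was not tested.
With sample number as a block the counts of genes called were 20 and 17 in effector Th1 and effector Th2 against naive, 27 and 16 in rested against effector Th1 and Th2, 26 and 8 in memory against rested Th1 and Th2, 5 in memory Th1 against naive, 2 in rested Th1 against Th2 and 1 in the Th1 minus Th2 difference of the memory step. It moved no other count of a comparison. In the same order, the shares of all reporters called with that block were 16.7% and 15.2%, 27.3% and 15.8%, 32.2% and 14.4%, 5.97%, 2.36% and 1.04%. For the other settings, counts are given only where they moved by over 1.5 times. With a pseudocount of 8 they were 12 in effector Th1 against naive (15% of genes, against 11% of reporters), 3 in memory against rested Th2 (3.75% against 5.19%), 2 in memory Th1 against naive (2.5% against 1.48%) and 3 in rested Th1 against Th2 (3.75% against 1.32%). With pattern as a random block they were 2 in memory against rested Th2 (3.89% of reporters). Against naive cells they were 31 in memory Th1 (29.8% of reporters) and 26 in memory Th2 (23.8%). Between Th1 and Th2 they were 27 in rested (20.1% of reporters) and 6 in memory cells (7.93%). In the lineage differences of the rest and memory steps they were 9 (7.97% of reporters) and 19 (16.5%). For memory Th1 against naive, median centring gave 1 (0.821% of reporters), the series matrix 1 (0.841%) and leaving out dim reporters 2 (1.44%).
Without 1 sample the counts ran from 4 to 6 in effector Th1 and from 4 to 6 in effector Th2 against naive, 7 to 15 and 3 to 7 in rested against effector Th1 and Th2, 8 to 16 and 1 to 4 in memory against rested Th1 and Th2, 0 to 2 and 0 to 0 in memory Th1 and Th2 against naive, and 0 to 0, 0 to 1 and 0 to 0 between effector, rested and memory Th1 and Th2. They were 0 to 0 for both lineage differences of steps. Shares of all reporters in these fits are not given, so the ranges show stability only. Counts moved by over 1.5 times without naive 1 (4 in effector Th1), naive 2 or effector Th2 1 (4 in effector Th2), effector Th1 3 (7 in rested Th1), effector Th2 1 or 3 or rested Th2 1 or 2 (3 in rested Th2), memory Th1 3 (8 in memory Th1), memory Th2 2 (4 in memory Th2), memory Th1 2 (2 against naive) and rested Th1 3 (1 against rested Th2). The median of all reporters for memory Th1 against memory Th2 was 0.05 with quantile normalization and -0.06 with median centring. Without a detection value, dim genes cannot be told from background.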
